A study of Homo sapiens with 9 samples.

Results

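Small nucleolar RNA (snoRNA) host genes were chosen by name: every row of the gene table whose Ensembl ID carries an SNHG symbol followed by a number, plus GAS5, ZFAS1 and EPB41L4A-AS1. The rule found 31 of the 60675 rows, 28 of them SNHG genes. It reads names and no measured value, but host genes, gene lists and comparisons were chosen with earlier results of these data known. RNA was sequenced from MM.1S cells, an established human multiple myeloma line, after 24 h with epigallocatechin gallate (EGCG, a polyphenol of tea leaves), in a study of how EGCG promotes apoptosis in myeloma cells. The libraries fall into 3 groups of 3: no EGCG (0 µM, the control), 40 µM and 80 µM EGCG, all in the same culture medium with serum. No source used here says that the 3 libraries of a dose came from separate cultures, so p-values measure only the spread between these libraries, which may be technical, and all results are from 1 cell line.

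snoRNAs guide the chemical modification of ribosomal RNA. Box C/D snoRNAs direct 2′-O-methylation, box H/ACA snoRNAs direct pseudouridylation, and the related small Cajal body RNAs (scaRNAs) act on spliceosomal RNAs. In human cells most of them are cut out of the introns of longer transcripts. In the host genes described here the spliced exons usually code for no long protein, and several of these spliced RNAs, GAS5 and ZFAS1 among them, are known to be degraded by nonsense-mediated decay when they are translated. GAS5 was named for its accumulation in growth-arrested cells. Many hosts start with a C followed by an unbroken run of pyrimidines, the 5′ terminal oligopyrimidine (5′TOP) start that they share with ribosomal protein messengers.

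Such starts are shown here because they are the sequence feature these genes are best known to share. Among the annotated transcripts of the 27 hosts expressed highly enough to be tested, 15 hosts (55.6%) had at least 1 transcript that began with a C and 4 or more further pyrimidines, against 15.0% of all genes tested. Counted over transcripts, 39 of 281 host transcripts (13.9%) began this way, against 2.60% of 124249. The first 30 bases are printed in the sense of transcription, from GENCODE 29 on GRCh38, with the pyrimidine run in capitals.
GAS5, chr1:173867960-173867989, minus strand: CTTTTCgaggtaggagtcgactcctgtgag
ZFAS1, chr20:49278642-49278671, plus strand: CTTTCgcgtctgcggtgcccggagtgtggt
SNHG29, chr17:16439037-16439066, plus strand: CTTTTCattcccgttgttatggaggtaggc
SNHG3, chr1:28506043-28506072, plus strand: CCTTTTTggagacagattcgcagtggtcgc
SNHG4, chr5:139274102-139274131, plus strand: CCTTTCCCCTCCggcctctgccggtgctgc
SNHG19, chr16:2155329-2155358, minus strand: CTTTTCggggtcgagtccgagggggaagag
SNHG25, chr17:64145970-64145999, plus strand: CTTTCagcgcctgcaggttccgggaggtca
SNHG5, chr6:85678704-85678733, minus strand: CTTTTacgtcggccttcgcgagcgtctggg
SNHG16, chr17:76557769-76557798, plus strand: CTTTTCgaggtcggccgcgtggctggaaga
The first 3 rose at 80 µM, the next 4 fell and the last 2 passed no test. GAS5 and SNHG16 share their first 11 bases. Pyrimidine starts stood in 3 of the 5 hosts that rose at 80 µM, 4 of the 10 that fell and 8 of the 12 that did neither, so hosts of every direction held them.

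The libraries held 12674490 to 16427343 counts. Host genes took 0.1386 to 0.1497% of the counts in control libraries, 0.142 to 0.161% at 40 µM and 0.153 to 0.166% at 80 µM. The mitochondrially encoded share was 7.60 to 8.51% in the control, 8.47 to 11.5% at 40 µM and 10.1 to 10.9% at 80 µM. All 8 plasma cell markers were expressed in this myeloma line and summed to between 4336 and 4883 CPM (counts scaled by library size with TMM factors) in every library. Single markers moved in both directions within that sum. SDC1 averaged 928 CPM in the control, 445 CPM at 40 µM and 586 CPM at 80 µM, and MZB1 557 CPM in the control and 366 CPM at 80 µM. IRF4 averaged 1014 CPM in the control and 1671 CPM at 80 µM, and SLAMF7 466 and 636 CPM. Of 4 T and NK cell markers, CD3D and NKG7 were at 0 in all libraries, and the 4 summed to 4.29 to 5.28 CPM in the control, 2.55 to 3.91 CPM at 40 µM and 1.56 to 2.42 CPM at 80 µM, most of it CD3E. The 3 stromal markers, COL1A2 at 0 throughout, summed to 1.62 to 3.90 CPM in the control, 1.58 to 1.82 CPM at 40 µM and 0.744 to 1.59 CPM at 80 µM, and the 3 monocyte markers stayed at or under 0.892 CPM. The part these shifts play in the results was not tested. In a bulk library, fewer cells of a kind and less RNA per cell cannot be told apart.

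Of the 31 hosts, 27 passed the filter on low counts and 4 did not. SNHG22 had between 1 and 17 counts per library and SNHG31 between 0 and 6. SNHG28 was counted in the second 80 µM library only, with 3 counts, and SNHG27 in the second 40 µM library only, with 2 counts. A count of 0 allows a level of up to 0.183 to 0.237 CPM at these depths (3 counts, counting error only).

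At 80 µM EGCG against the control, the host genes split. GAS5, SNHG14, SNHG32, ZFAS1 and SNHG29 rose, by 1.29-fold to 2.24-fold, and 10 others fell. Among these, SNHG20, SNHG26, SNHG10, SNHG25 and SNHG4 fell to between 0.31 and 0.48 of the control level. Counts are of whole genes, so spliced and unspliced RNA were not told apart. In all, 15 of the 27 tested hosts (55.6%) passed edgeR's quasi-likelihood test at an adjusted p under 0.05 (Benjamini-Hochberg over 15982 genes), against 34.9% of all genes tested. The share that rose was 18.5%, against 17.4% of all genes, and so near the background. The share that fell was 37%, against 17.5% of all genes. As the hosts were chosen with earlier results known, these shares are a description. The median log2 fold change over the hosts was 0.02, beside -0.00 over all genes, and the median of its size was 0.46, beside 0.42. Libraries at 80 µM and in the control did not overlap for 19 hosts (70.4%), beside 49.9% of all genes, and as many had an unadjusted p under 0.05, beside 44.7% of all genes.

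**Figure D1:**
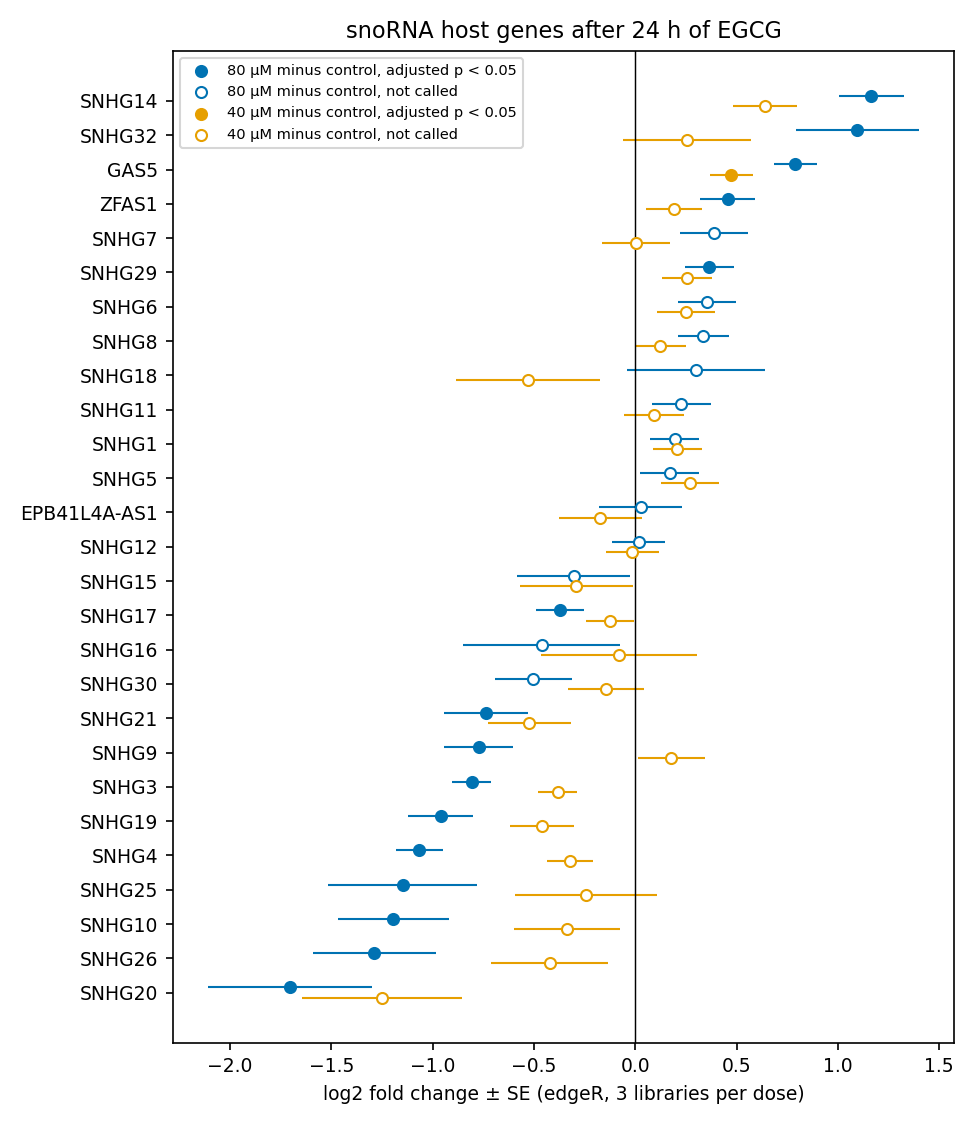
log2 fold change of the 27 tested host genes (rows) at 80 µM (blue) and at 40 µM (orange) against the control, with standard errors from edgeR over 3 libraries per dose; filled points have an adjusted p under 0.05. At 80 µM 5 filled points lie right of 0 and 10 lie left of it, while at 40 µM GAS5 alone is filled.

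GAS5 (ENSG00000234741, on chromosome 1 from 173863900 to 173868882) encodes a long non-coding RNA that can bind the glucocorticoid receptor. It stood at 120.0, 101 and 107 CPM in the control libraries, 147, 156 and 151 CPM at 40 µM and 208, 179 and 178 CPM at 80 µM. The 3 doses did not overlap in any library. Its log2 fold change at 80 µM against the control was 0.79 ± 0.11 (SE; adjusted p = 0.000329, edgeR), higher in 3 of 3 libraries, and the call held under all 16 alternative analyses.

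SNHG14 (ENSG00000224078) spans 440880 bases of the imprinted Prader-Willi and Angelman region on chromosome 15, from 24978583 to 25419462, holds the SNORD115 and SNORD116 clusters and runs antisense to the ubiquitin ligase gene UBE3A. The control libraries had 68.4, 76.8 and 50.8 CPM, the 40 µM libraries 88.2, 102 and 115 CPM and the 80 µM libraries 142, 160 and 138 CPM. Every treated library lay above every control library. The log2 fold change at 80 µM was 1.17 ± 0.16 (adjusted p = 0.000373, edgeR), called under all 16 alternatives. Over the same comparison UBE3A on the opposite strand had a log2 fold change of 0.22 ± 0.15 (adjusted p = 0.274, edgeR), and SNRPN, whose exons overlap SNHG14 on the same strand, 0.10 ± 0.11 (adjusted p = 0.478, edgeR).

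ZFAS1 (ENSG00000177410), host of the SNORD12 family, had 32.7, 33.8 and 31.5 CPM in the control, 34.7, 45.1 and 32.2 CPM at 40 µM and 47.8, 42.4 and 44.2 CPM at 80 µM. The 80 µM libraries all lay above the control, while the second 40 µM library stood above the other 2 of its dose. Its log2 fold change at 80 µM was 0.46 ± 0.14 (adjusted p = 0.0254, edgeR). This call was lost under 5 of 16 alternatives, with adjusted p up to 0.0852: with no filter on low counts, or without 80 µM replicate 1 or 3 or control replicate 1 or 3.

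SNHG29 (ENSG00000175061), host of SNORD49A, SNORD49B and SNORD65, was the most counted host per library. Its levels were 260, 235 and 309 CPM in the control, 328, 345 and 286 CPM at 40 µM and 364, 318 and 354 CPM at 80 µM. The 80 µM libraries lay above the control by little more than the spread within the control. The log2 fold change at 80 µM was 0.37 ± 0.12 (adjusted p = 0.0402, edgeR). It was no longer called under 7 of 16 alternatives, with adjusted p up to 0.125, among them no filter on low counts and leaving out 80 µM replicate 1 or 3, 40 µM replicate 1 or control replicate 1 or 2.

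SNHG32 (ENSG00000204387), which GENCODE 29 lists as the protein-coding gene C6orf48 and which holds SNORD48 and SNORD52, was the least expressed tested host. It averaged 2.14 ± 0.66 CPM at 80 µM and 0.99 ± 0.06 CPM in the control (SD, n = 3 each), a log2 fold change of 1.09 ± 0.30 (adjusted p = 0.0177, edgeR). The second 80 µM library, at 1.40 CPM, was the lowest of its dose but above all control libraries. Without 80 µM replicate 1 or 3 or control replicate 3 the call was lost, with adjusted p up to 0.0705.

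Among the hosts that fell, SNHG4 (ENSG00000281398, on chromosome 5 from 139274102 to 139284899) holds SNORA74A. It stood at 104, 110 and 103 CPM in the control, 74.0, 97.2 and 82.4 CPM at 40 µM and 51.6, 51.8 and 47.9 CPM at 80 µM. The 3 doses did not overlap. The log2 fold change at 80 µM was -1.07 ± 0.12 (adjusted p = 0.000103, edgeR), the smallest adjusted p among the hosts. It was called under all 16 alternatives, and 14.0% of its exonic bases are shared on the same strand with MATR3, which was not called (0.49 ± 0.28, adjusted p = 0.210, edgeR).

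SNHG3 (ENSG00000242125, on chromosome 1 from 28505980 to 28510892) holds SNORA73A and SNORA73B, the H/ACA snoRNAs also known as U17, which act in cleavage of the ribosomal RNA precursor. Control libraries had 136, 128 and 127 CPM, 40 µM libraries 101, 98.6 and 100.3 CPM and 80 µM libraries 67.2, 76.8 and 79.5 CPM. No library of a dose overlapped with those of another dose. The log2 fold change at 80 µM was -0.81 ± 0.10 (adjusted p = 0.000179, edgeR) and held under all 16 alternatives. RCC1, the nucleotide exchange factor of the GTPase Ran, shares 5.92% of the exonic bases of SNHG3 on the same strand, and it fell too, by 0.87 ± 0.16 on the log2 scale (adjusted p = 0.00219, edgeR).

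SNHG19 and SNHG9, short hosts on chromosome 16, hold SNORD60 and SNORA78. SNHG19 (ENSG00000260260) had 20.1, 18.8 and 21.4 CPM in the control, 15.5, 16.8 and 11.5 CPM at 40 µM and 10.4, 9.43 and 11.2 CPM at 80 µM, where the lowest 40 µM library, at 11.5 CPM, came close to the 80 µM level. Its log2 fold change at 80 µM was -0.96 ± 0.16 (adjusted p = 0.00123, edgeR). SNHG9 (ENSG00000255198) took another course with dose. It had 12.01, 11.8 and 10.2 CPM in the control, 13.9, 14.3 and 10.3 CPM at 40 µM, where 2 of 3 libraries exceeded all control libraries, and 7.36, 6.18 and 6.39 CPM at 80 µM, below all others. Its log2 fold change at 80 µM against the control was -0.77 ± 0.17 (adjusted p = 0.00566, edgeR). Both calls held under all 16 alternatives.

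SNHG20 (ENSG00000234912), host of SCARNA16, showed the widest control group among the hosts that fell. Its control libraries had 29.02, 13.2 and 15.1 CPM, the 40 µM libraries 8.86, 11.5 and 3.72 CPM and the 80 µM libraries 5.43, 7.39 and 4.75 CPM. The first control library stood far above the other 2. The log2 fold change at 80 µM was -1.70 ± 0.40 (adjusted p = 0.00843, edgeR), and -1.26 (adjusted p = 0.0367, edgeR) without that library. SNHG17 (ENSG00000196756), host of the SNORA71 family, fell less, with 71.1, 58.1 and 66.2 CPM in the control, 55.2, 58.2 and 66.1 CPM at 40 µM and 48.7, 48.2 and 54.1 CPM at 80 µM. Its log2 fold change at 80 µM was -0.37 ± 0.12 (adjusted p = 0.0336, edgeR). The call was lost under 6 of 16 alternatives, with adjusted p up to 0.139: with no filter, without any 1 of the 80 µM libraries, or without control replicate 1 or 3.

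**Figure D2:**
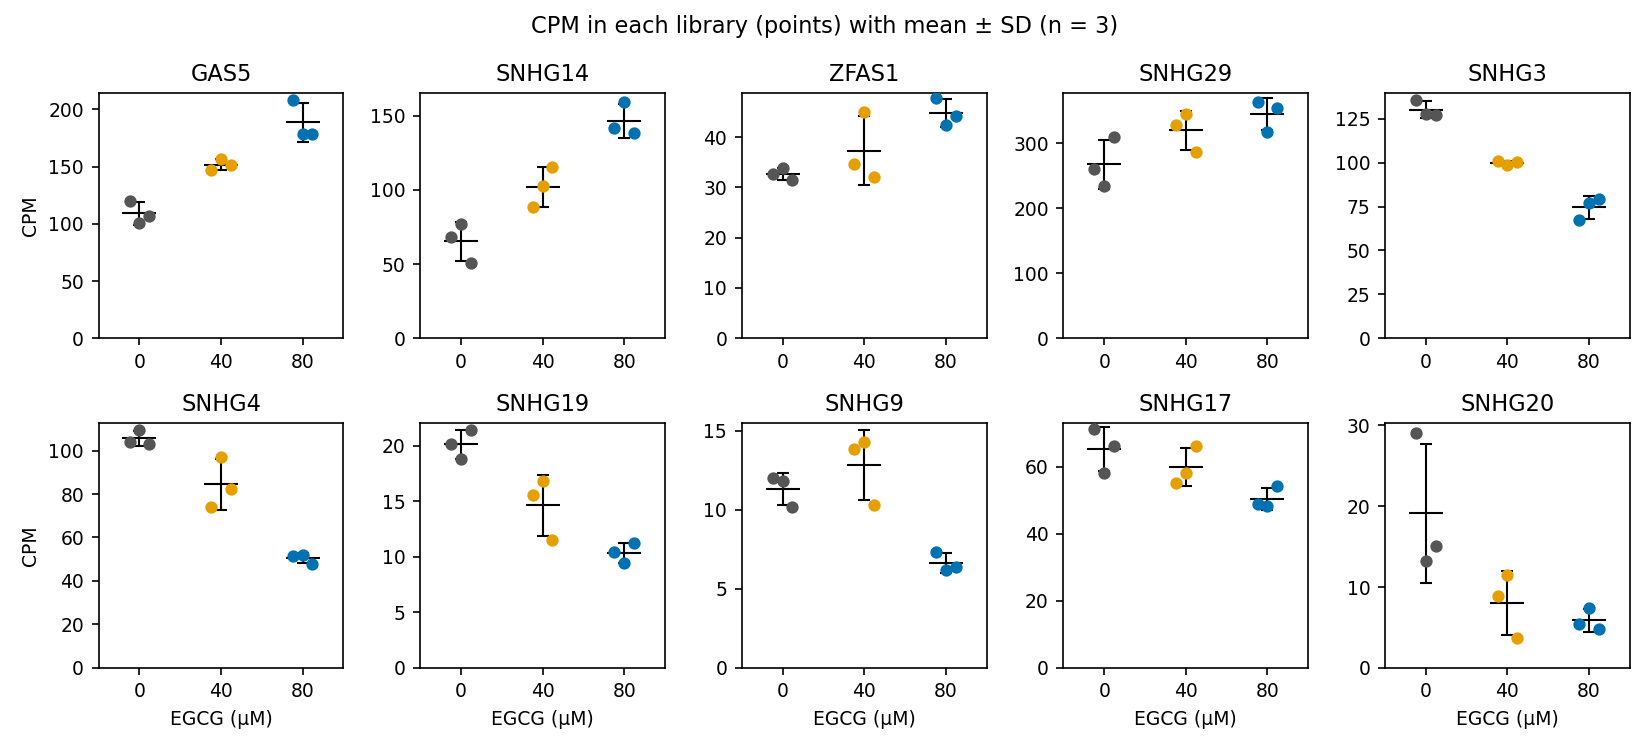
CPM (vertical axes, each from 0) of the 10 hosts called in at least 1 comparison with a mean of at least 10 CPM, against EGCG dose; points are single libraries and bars are mean ± SD of 3. GAS5 and SNHG14 climb and SNHG3 and SNHG4 descend with dose without overlap between 80 µM and control, while the first control library of SNHG20 (29.02 CPM) stands apart from the other 2.

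The remaining 4 hosts that fell were weakly expressed. SNHG10 (host of SCARNA13) averaged 1.53 ± 0.09 CPM at 80 µM and 3.51 ± 0.27 CPM in the control (SD, n = 3 each), and its log2 fold change was -1.19 ± 0.28 (adjusted p = 0.00722, edgeR). SNHG26 (SNORD93) averaged 2.84 ± 0.74 CPM at 80 µM and 6.90 ± 2.32 CPM in the control (SD, n = 3 each), with -1.29 ± 0.30 (adjusted p = 0.00787, edgeR). Both held under all 16 alternatives. SNHG25 (SNORD104 and SNORA50C) had a log2 fold change of -1.15 ± 0.37 (adjusted p = 0.0338, edgeR), lost with no filter or without 80 µM replicate 2 or 3 or control replicate 1 or 3, with adjusted p up to 0.118. SNHG21 (SCARNA15) had -0.74 ± 0.21 (adjusted p = 0.0184, edgeR), lost without 80 µM replicate 1 or 3 or control replicate 3, with adjusted p up to 0.0647. Overlap bears on these counts: 72.9% of the exonic bases of SNHG21 are shared with another transcript on its strand and 34.1% with FSD2 on the other strand, and 47.8% of those of SNHG25 with SNORA50C.

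The 12 hosts that passed no test at 80 µM had log2 fold changes between -0.50 (SNHG30, adjusted p = 0.0626, edgeR) and 0.39 (SNHG7, adjusted p = 0.0963, edgeR). SNHG8 and SNHG6 were close to the threshold, at 0.34 ± 0.13 (adjusted p = 0.0607, edgeR) and 0.35 ± 0.14 (adjusted p = 0.0799, edgeR). SNHG5, SNHG1, SNHG12, SNHG11, SNHG15, SNHG18 and EPB41L4A-AS1 lay between -0.30 and 0.30. Leaving out 1 library brought 4 of them past the threshold: SNHG8 without 40 µM replicate 2 or 3 (adjusted p down to 0.0364, the lowest being with all 3 left out), SNHG6 without 40 µM replicate 3 (0.0349), SNHG7 without control replicate 3 (0.0309) and SNHG30 without 80 µM replicate 3 (0.0324), by edgeR. A missed threshold does not show that these hosts kept their level. SNHG16, host of the SNORD1 family, could hardly be judged: its libraries ranged over 62.9 to 129 CPM in the control, 54.4 to 119 CPM at 40 µM and 33.0 to 84.0 CPM at 80 µM, and the standard error of its log2 fold change (-0.46 ± 0.39) was nearly as large as the change.

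At 40 µM against the control, GAS5 was the only host called, at 0.47 ± 0.10 on the log2 scale (adjusted p = 0.0466, edgeR), higher in 3 of 3 libraries. That is 1 of 27 hosts (3.7%), beside 2.3% of all genes in either direction and 1.49% that rose. The call depended on every library: it was lost without any 1 of the 9, with adjusted p up to 0.152, and under 4 other alternatives. SNHG14 (0.64 ± 0.16, adjusted p = 0.0644, edgeR) and SNHG3 (-0.38 ± 0.10, adjusted p = 0.0683, edgeR) lay just outside the threshold. Without adjustment 7 of 27 hosts (25.9%) had a p under 0.05, beside 19.9% of all genes. By edgeR 0 hosts were called lower, beside 0.813% of all genes, whereas DESeq2's Wald test called 4 hosts, with SNHG3 and SNHG20 lower and GAS5 and SNHG14 higher. SNHG20 had a log2 fold change of -1.25 ± 0.40 by edgeR (adjusted p = 0.127), with all 40 µM libraries below all control libraries. In all, 8 hosts (29.6%) had 40 µM libraries that did not overlap with the control, beside 24.3% of all genes.

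At 80 µM against 40 µM, 6 hosts were called (22.2%), beside 23.0% of all genes, so near the background, and 12 (44.4%) had libraries that did not overlap, beside 41.6%. SNHG14 rose by 0.52 ± 0.16 on the log2 scale (adjusted p = 0.0356, edgeR). SNHG9 (-0.95 ± 0.17, adjusted p = 0.00351), SNHG4 (-0.75 ± 0.12, adjusted p = 0.00178) and SNHG3 (-0.42 ± 0.10, adjusted p = 0.0111) fell in edgeR's test and under all 16 alternatives. SNHG10 (-0.86 ± 0.28, adjusted p = 0.0480) and SNHG19 (-0.50 ± 0.16, adjusted p = 0.0473) fell in edgeR's test but were called under only 1 of 16 alternatives, the one without 40 µM replicate 3, with adjusted p up to 0.164 and 0.169 elsewhere. The SNHG14 call was lost under 7, with adjusted p up to 0.118, among them no filter, leaving out any 1 of the 80 µM libraries and leaving out 40 µM replicate 1 or 2. Without 80 µM replicate 1 or 3, or 40 µM replicate 1, the count of hosts called was 3. GAS5 missed the threshold (0.32 ± 0.10, adjusted p = 0.0524, edgeR), and passed it under 5 of 16 alternatives: both DESeq2 settings, only the 6 libraries compared, mitochondrially encoded genes left out and without control replicate 3. The 3 comparisons share libraries, so their values for a gene are not independent.

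Levels were set between genes as CPM per kilobase of merged exons. Merged exons cover all annotated transcripts of a gene, 1 for SNHG19 (342 bases) and 29 for GAS5 (3631 bases). Many annotated transcripts can thus place a host lower, whichever of them it expresses, so ranks between hosts depend on the annotation. On this scale SNHG6 (host of SNORD87) was highest at both ends of the dose range, at 126 ± 15.8 at 80 µM and 98.8 ± 4.04 in the control (SD, n = 3 each), followed by SNHG29 at 91.8 ± 6.44 and 71.2 ± 10.1. SNHG19 stood at rank 6 at 80 µM (30.3 ± 2.63) and at rank 3 in the control (58.8 ± 3.82), where its lead over SNHG5 (54.9 ± 3.21) was within their spread. GAS5 stood at rank 5 at 80 µM (51.9 ± 4.73), level with SNHG8 (51.9 ± 2.40), and at rank 7 in the control (30.04 ± 2.74), next to SNHG3 (31.9 ± 1.21) and again within the spread. SNHG4 stood at rank 13 at 80 µM (11.3 ± 0.50) and at rank 8 in the control (23.6 ± 0.77). SNHG14, high in counts, was low per kilobase, at 3.38 ± 0.26 at 80 µM and 1.51 ± 0.31 in the control, since its merged exons cover 43324 bases.

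**Figure D3:**
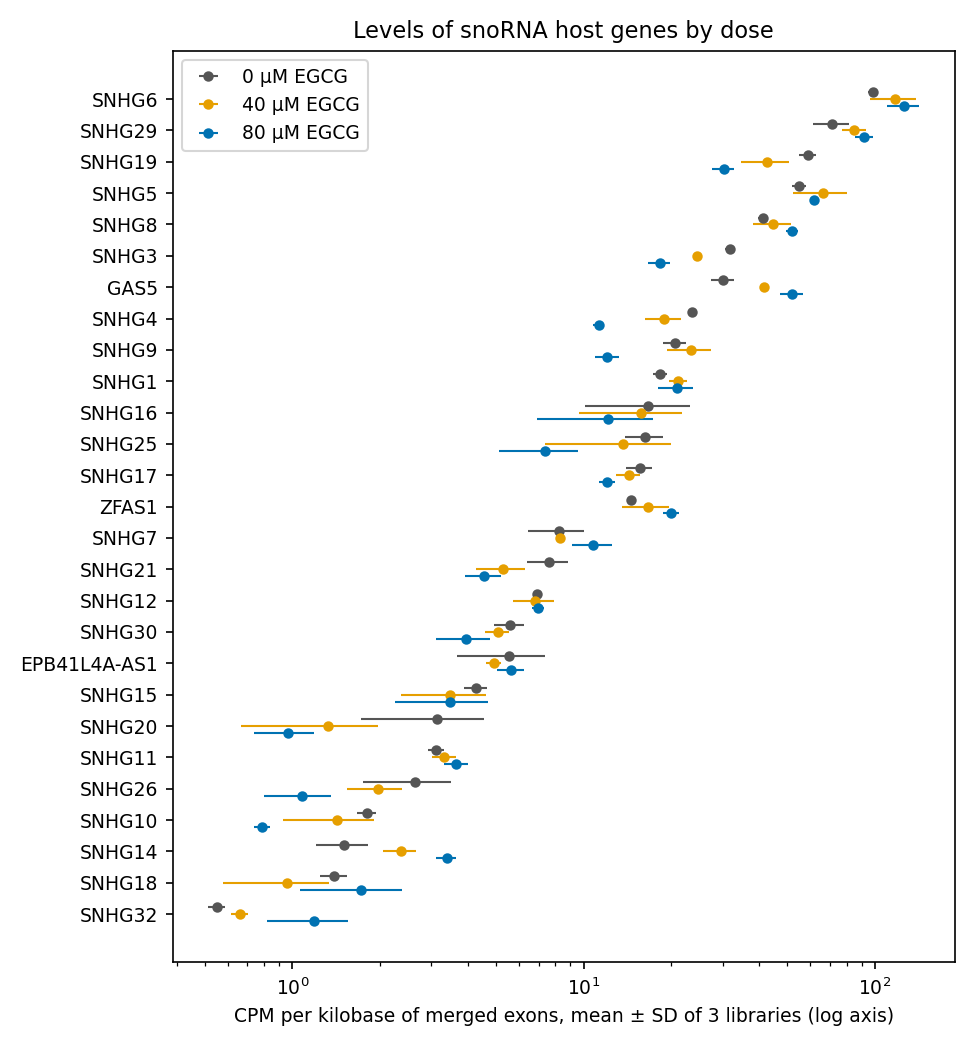
CPM per kilobase of merged exons (horizontal log axis, mean ± SD of 3 libraries) of the 27 tested hosts at 0, 40 and 80 µM, ordered by their control level. SNHG6 and SNHG29 lead at each dose, and SNHG19 and GAS5 change places between 0 and 80 µM, with 30.3 against 51.9 at 80 µM and 58.8 against 30.04 in the control. The order of hosts depends on the exons annotated for each.

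Sorting the hosts by the guide RNA annotated inside them gave uneven counts; this grouping was chosen after the values were seen, so it is a description with no test. Of 12 tested hosts with box C/D snoRNAs, 4 rose and 2 fell at 80 µM against the control (median log2 fold change 0.25), beside 17.4% of all genes that rose and 17.5% that fell. Of 9 hosts with box H/ACA snoRNAs none rose and 4 fell (SNHG4, SNHG3, SNHG9 and SNHG17; median -0.30). All 3 hosts with a scaRNA (SNHG20, SNHG10 and SNHG21) fell, with a median of -1.19. Of the 2 hosts with both box types, SNHG25 fell and SNHG12 (0.02) was not called. Both box classes held hosts on either side of 0, with C/D hosts between -1.29 (SNHG26) and 1.17 (SNHG14) and H/ACA hosts between -1.07 (SNHG4) and 0.39 (SNHG7). GAS5, a known host of several box C/D snoRNAs, was kept apart because the annotation copy used here placed no snoRNA inside it; with the box C/D hosts it would add 1 to those that rose.

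**Figure D4:**
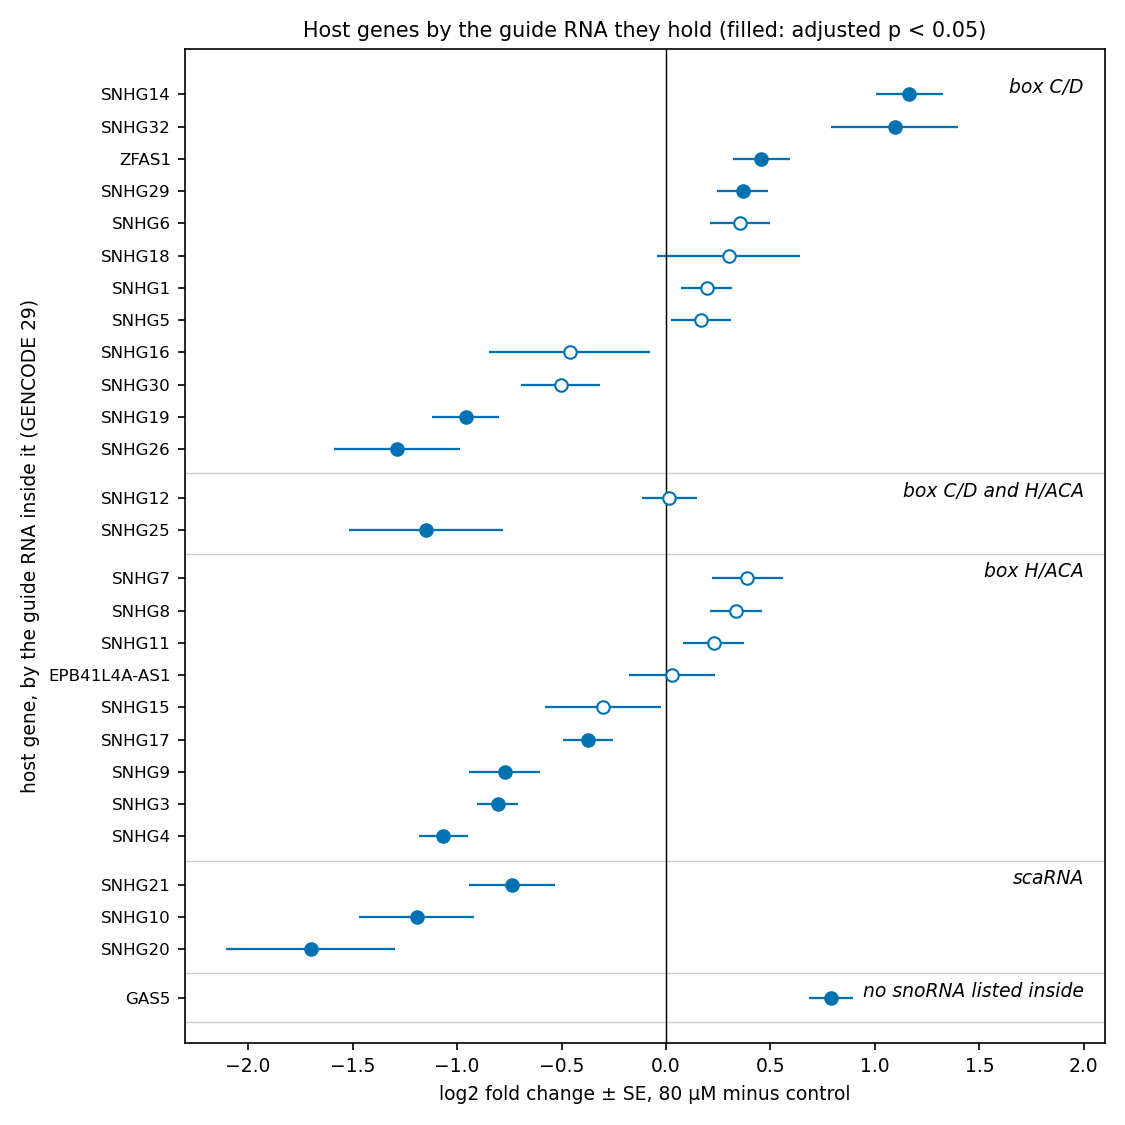
log2 fold change ± SE at 80 µM against the control for the 27 tested hosts, in blocks by the kind of guide RNA annotated inside them; filled points have an adjusted p under 0.05. The filled points of the H/ACA and scaRNA blocks all lie left of 0, those of the C/D block on both sides.

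The snoRNAs themselves were hardly counted. The table has 138 snoRNA rows inside 28 of the hosts. They summed to 2784 counts over all 9 libraries, 44 of them were at 0 throughout and 107 never exceeded 1. The highest count in 1 library was 75, for SNORD104 in SNHG25. The count of a host gene does not report the level of the snoRNAs cut from it. Of the 8 rows that passed the filter, 4 fell at 80 µM against the control, beside 17.5% of all genes tested. The filter does not ask for counts at every dose. A row low at 80 µM could pass on its other libraries, and a row low in the control on its treated libraries. The part this plays in the 4 falls was not tested. SNORD104 in SNHG25 had 14 to 23 counts at 80 µM, against 44 to 67 in the control, and fell by 1.54 ± 0.41 on the log2 scale (adjusted p = 0.0143, edgeR). SNORA73B in SNHG3 had 15 to 36 counts, against 47 to 65 in the control, and fell by 1.03 ± 0.26 (adjusted p = 0.0123, edgeR). SNORA71B in SNHG17 had 7 to 11 counts, against 17 to 22 in the control, and fell by 1.17 ± 0.35 (adjusted p = 0.0247, edgeR). These 3 stand in hosts that fell. SNORA24 had 8 to 11 counts at 80 µM, against 17 to 21 in the control, and fell by 0.96 ± 0.32 (adjusted p = 0.0372, edgeR). It stands in SNHG8, whose own log2 fold change was 0.34 and not called. All 131 bases of SNORA24 lie in annotated exons of SNHG8, so its reads could be given to either row. SNORD26 (0.60 ± 0.87) and SNORD27 (-0.55 ± 0.72) in SNHG1, SNORD87 (-1.02 ± 0.56) in SNHG6 and SNORA17B (-0.89 ± 0.60) in SNHG7 were not called. These hosts had log2 fold changes of 0.19, 0.35 and 0.39, also not called, so rows and hosts did not always share a direction. In SNHG1 the SNORD26 row held 20 to 30 counts at 80 µM, against 49, 1 and 1 in the 3 control libraries. Its 75 bases all lie in annotated exons of SNHG1, so reads could be given to either row, and how such reads were assigned is not stated in the labels or headers.

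Several hosts start close to a protein-coding gene that runs the other way. Of the 27 tested hosts, 7 had such a neighbour with a start within 2000 bases. GAS5 rose with ZBTB37, a zinc finger gene 800 bases away (1.14 ± 0.39 on the log2 scale, adjusted p = 0.0449, edgeR), and ZFAS1 with ZNFX1, an antiviral RNA sensor gene 248 bases away (0.57 ± 0.13, adjusted p = 0.00651, edgeR). SNHG10 fell with GLRX5, a mitochondrial glutaredoxin gene 1369 bases away (by 0.85 ± 0.13, adjusted p = 0.000664, edgeR), and SNHG19 with TRAF7, a ubiquitin ligase gene 340 bases away (by 0.35 ± 0.11, adjusted p = 0.0348, edgeR). In these 4 pairs both genes passed the test in 1 direction. Of all genes, 34.9% were called in either direction, but that share is for single genes. No share over other neighbouring pairs was computed, so there is no like background. SNHG10 shares 20.1% of its exonic bases with GLRX5 on the other strand and ZFAS1 11.1% with ZNFX1, so reads of these pairs may not be separable. In the other 3 pairs 1 gene passed the test and the other did not. SNHG9 fell, beside -0.48 ± 0.22 (adjusted p = 0.115, edgeR) for RPS2, a ribosomal protein gene 99 bases away. SEMA5A, a semaphorin gene 125 bases from SNHG18, fell by 1.14 ± 0.23 (adjusted p = 0.00311, edgeR), beside 0.30 ± 0.34 for SNHG18. The untested hosts SNHG22 and SNHG31 start 63 bases from ACAA2 (0.03 ± 0.14) and 518 bases from BARD1 (0.08 ± 0.16), neither called.

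Among these 7 pairs the widest gap was between SNHG1 and SLC3A2, the heavy chain of amino acid exchangers, whose annotated starts lie 188 bases apart on chromosome 11. SLC3A2 had 212, 184 and 220 CPM in the control, 487, 380 and 393 CPM at 40 µM and 1186, 1032 and 1124 CPM at 80 µM. It rose at 80 µM by 2.44 ± 0.13 on the log2 scale (adjusted p = 1.45e-06, edgeR). SNHG1, host of SNORD22 and SNORD25 to SNORD28 among others, had 64.8, 72.7 and 68.7 CPM in the control, 72.7, 81.9 and 83.4 CPM at 40 µM and 91.0, 71.0 and 74.0 CPM at 80 µM, a log2 fold change of 0.19 ± 0.12 (adjusted p = 0.243, edgeR). SLC3A2 thus increased in every treated library, whereas the SNHG1 libraries at 80 µM overlapped with the control.

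The shared start region of SNHG1 and SLC3A2 is printed with that of ZFAS1 and ZNFX1, where both genes rose. Each is the RefSeq promoter window on GRCh38.p14 in the sense of the host, 250 bases before its RefSeq start and 50 from it, with those 50 in capitals.
SNHG1, chr11:62855836-62856135, minus strand: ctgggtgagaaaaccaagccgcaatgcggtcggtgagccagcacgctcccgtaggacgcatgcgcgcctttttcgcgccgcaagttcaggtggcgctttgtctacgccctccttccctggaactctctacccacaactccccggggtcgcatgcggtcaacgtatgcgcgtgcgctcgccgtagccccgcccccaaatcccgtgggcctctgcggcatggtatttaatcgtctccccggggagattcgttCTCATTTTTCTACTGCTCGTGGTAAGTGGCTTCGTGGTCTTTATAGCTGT
ZFAS1, chr20:49278392-49278691, plus strand: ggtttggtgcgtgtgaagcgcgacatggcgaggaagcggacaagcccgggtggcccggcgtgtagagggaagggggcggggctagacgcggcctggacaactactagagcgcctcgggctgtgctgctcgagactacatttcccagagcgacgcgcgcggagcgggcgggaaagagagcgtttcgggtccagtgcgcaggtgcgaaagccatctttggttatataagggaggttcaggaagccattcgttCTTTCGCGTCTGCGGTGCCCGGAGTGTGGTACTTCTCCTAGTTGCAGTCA
The start of SLC3A2 lies inside the first window, 217 bases from the RefSeq start of SNHG1, and that of ZNFX1 inside the second, 216 bases from that of ZFAS1. The transcribed part of the ZFAS1 window opens with the same pyrimidine start as above; that of SNHG1 begins with a C but holds an A within its first 5 bases.

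RefSeq windows were found for 23 tested hosts and searched on both strands, beside 35116 promoters in all. The E-box CACGTG stood in 2 of 23 (8.7%), against 7.26% of all promoters. TGATGNAA, the form of the C/EBP-ATF response element bound by ATF4, stood in 0 of 23, against 3.62%, and TGACNNNGC, the core of the antioxidant response element, in 2 (8.7%), against 13.3%. TATAAA stood in 4 (17.4%), against 11.5%, CTCTTTC in 2 (8.7%), against 7.67%, and CTTTTC in 6 (26.1%), against 21%. The longest run of C and T within 10 bases of the start had a median of 6 bases in hosts and 4 in all promoters. A match is a run of letters and no evidence of binding, and a missing one says only that these letters are not in the window. The RefSeq start of GAS5 differs from the GENCODE start printed above.

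**Figure D5:**
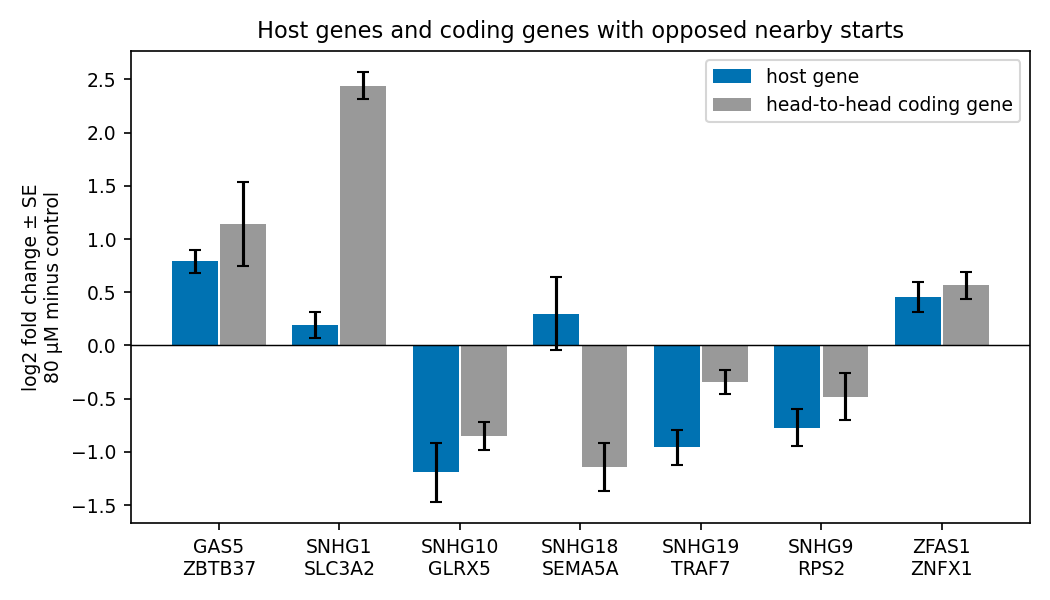
log2 fold change ± SE at 80 µM against the control of 7 hosts (blue) and the coding gene that starts head to head with each (grey). The pairs of GAS5, SNHG10, SNHG19 and ZFAS1 passed the test in 1 direction each; SLC3A2 stands at 2.44 beside 0.19 for SNHG1.

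Some hosts overlap a coding gene on the other strand, and no label or header states whether counting used strand, so reads of the 2 genes may not be separable. EPB41L4A-AS1 (host of SNORA13) shares 49.6% of its exonic bases with EPB41L4A, a cytoskeletal adaptor gene, which rose by 2.49 ± 0.25 on the log2 scale at 80 µM (adjusted p = 5.58e-05, edgeR), to 5.07 to 5.88 CPM, against 0.766 to 1.28 CPM in the control. The host itself had a log2 fold change of 0.03 ± 0.21. SNHG6 shares 29.3% with MCMDC2 (1.65 ± 0.37, adjusted p = 0.00617, edgeR), SNHG7 25.2% with DIPK1B (-0.92 ± 0.35, adjusted p = 0.0658, edgeR), and SNHG10 20.1% with GLRX5. Of the hosts followed by library above, ZFAS1 shares 11.1% with ZNFX1, and GAS5 1.16% with its antisense gene GAS5-AS1.

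The hosts with a mean of at least 10 CPM, 19 in all, were compared with each other over the 9 libraries. The median Pearson correlation of log2 CPM over the 171 pairs was 0.0112, so they did not vary as 1 block; these values share the 3 doses and are given as a description. Over all libraries ZFAS1 and SNHG8 had r = 0.943, SNHG3 and SNHG4 0.927 and SNHG14 and GAS5 0.899, whereas GAS5 and SNHG3 had -0.956 and SNHG14 and SNHG19 -0.953. Within doses the picture differed. Deviations from the mean of each dose correlated at 0.851 for ZFAS1 and SNHG8, 0.874 for SNHG8 and SNHG6 and 0.935 for SNHG19 and SNHG8, a pair that had -0.499 over all libraries, but at -0.305 for SNHG3 and SNHG4. The same libraries recur in these deviations: the third 40 µM library was lowest of its dose for 11 of the 19 hosts, the second 80 µM library for 12 and the second control library for 11.

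Outside the hosts, 9349 genes were ranked by how like GAS5 their pattern over the 9 libraries was. First came NAMPTP1 (r = 0.990), a pseudogene of NAMPT whose reads may come from its parent, AIG1 (0.988) and ADM2 (0.982), which encodes a peptide hormone. MTHFD2 (0.981), a mitochondrial folate enzyme, and KLHL12 (0.980), a ubiquitin ligase adaptor, followed. These values share the 3 doses, so a gene that climbs with dose can score high, and they are given as a description. The size of the change differed: the log2 fold change at 80 µM against the control ran from 0.42 (KLHL12) to 4.20 (ADM2), beside 0.79 for GAS5.

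The genes of proteins that package snoRNAs were compared in the same fit. Of 17 core and assembly factors of snoRNA particles, 11 fell and none rose at 80 µM against the control by edgeR, beside 17.5% of all genes that fell and 17.4% that rose, with a median log2 fold change of -0.57. NOP56, a core protein of box C/D particles, averaged 84.6 ± 0.78 CPM at 80 µM and 170 ± 13.1 CPM in the control (SD, n = 3 each), a fall of 1.00 ± 0.09 on the log2 scale (adjusted p = 3.68e-05, edgeR). NHP2, of the box H/ACA core, fell by 1.25 ± 0.14 (adjusted p = 0.000107, edgeR), and RUVBL1, an assembly ATPase, by 1.08 ± 0.12 (adjusted p = 0.000115, edgeR). At 40 µM against the control none of the 17 was called, and 11 fell at 80 µM against 40 µM, beside 12.1% of all genes.

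Of 33 tested coding hosts other than ribosomal protein genes, 16 fell and 5 rose at 80 µM against the control (median -0.06), beside 17.5% of all genes that fell and 17.4% that rose. NOP56, again, and DKC1, the pseudouridine synthase (fell by 0.72 ± 0.09, adjusted p = 0.000210, edgeR), were among those that fell, and HSPA9, a mitochondrial chaperone, rose (0.87 ± 0.10, adjusted p = 0.000107, edgeR). Of 23 ribosomal protein genes that hold snoRNAs, none was called by edgeR in any of the 3 comparisons, beside 34.9% of all genes at 80 µM against the control; this difference from the other coding hosts was not tested. The median was -0.02 at 80 µM, with 0.26 ± 0.12 for RPL3, -0.48 ± 0.22 for RPS2 and -0.21 ± 0.10 for RPL5 (adjusted p = 0.110, 0.115 and 0.148, edgeR). RPL3 alone of these 3 had an unadjusted p under 0.05, at 0.0488. At 40 µM against the control 1 of the 33 other coding hosts fell and none rose.

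Of 14 nonsense-mediated decay factors, 2 rose and 1 fell at 80 µM against the control (median -0.14), a smaller share than the 34.9% called over all genes. EIF4A3, the helicase of the exon junction complex, averaged 90.0 ± 0.60 CPM at 80 µM and 142 ± 13.1 CPM in the control (SD, n = 3 each), a fall of 0.66 ± 0.09 on the log2 scale (adjusted p = 0.000518, edgeR). CASC3, of the same complex, rose by 0.52 ± 0.10 (adjusted p = 0.00209, edgeR) and SMG9, a regulator of the SMG1 kinase, by 0.37 ± 0.10 (adjusted p = 0.0169, edgeR). None of the 14 was called at 40 µM.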

How the data were processed

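The table that the authors deposited gives each gene a raw count and an FPKM value in every library, as its header names them. Per the submitters' processing notes, the build named is GRCh38 and the tools named are edgeR, SAMtools 1.3.1, HISAT2 and CASAVA 1.8, with no roles given; no label or header names the counting program, its strand setting or the annotation. The deposited FPKM values follow from the counts by a gene length that was the same in all 9 libraries (within 0.1%, 35349 genes). That length was 3.69 times the merged exons over the hosts (median) and 1.13 times over all genes, so levels between genes were set from counts and GENCODE 29 exons instead.

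Of 60675 IDs, 60656 had a symbol; 58444 were in GENCODE 29, where 4 hosts carry another name. Host genes, gene lists and comparisons were chosen with earlier results of these data known. Counts of all genes were fitted with edgeR 4.0.16 (R 4.3.3): TMM, filterByExpr by dose, 1 quasi-likelihood fit over 9 libraries, Benjamini-Hochberg over 15982 genes, called at an adjusted p under 0.05. Genes kept held 99.7 to 99.8% of counts. Standard errors are the log2 fold change over the root of F. The code was tested on simulated data. Values by library are given for hosts called in any comparison with a mean of at least 10 CPM; of each other list the 3 genes with the smallest p at 80 µM are named. Alternatives were DESeq2 size factors, DESeq2 1.42.0, limma-voom 3.58.1, no filter, only the 6 libraries compared, no mitochondrially encoded genes, a replicate block and each library left out. No 2 libraries of a dose agreed within sampling noise (chi-square over its degrees of freedom, 11.3 to 29.4). The floor of 3 counts covers counting error only.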

Additional observations from a re-analysis of the deposited data

How the results depend on the processing

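At 80 µM against the control, 15 hosts were called. The other settings gave 11 (no filter on low counts) to 17 (only the 6 libraries compared), and leaving out 1 library gave 10 to 17. At 40 µM against the control 1 host was called, and 0 with DESeq2 size factors, with no filter or with only the 6 libraries compared; DESeq2's Wald test called 4, and leaving out any 1 library gave 0. At 80 µM against 40 µM 6 hosts were called, 3 with no filter, and 3 to 7 with 1 library left out. The cause of these moves was not tested, beyond the fewer libraries or more genes that the settings imply. Over all genes the count at 40 µM moved most: 368 genes, 847 with DESeq2, 228 with no filter, 153 with only the 6 libraries and 136 to 469 with 1 library left out; at 80 µM it was 5574 (4170 to 5775), and 3674 (2101 to 4059) against 40 µM. No called value changed sign under any of the 16 settings; of 944 values of comparisons not called, 36 had the other sign. Leaving out the mitochondrially encoded genes gave 15, 1 and 5 hosts called at 80 µM, at 40 µM and at 80 µM against 40 µM. At 80 µM against 40 µM, SNHG25 and ZFAS1 were called without 1 of the 40 µM libraries, SNHG32 without 1 of the 80 µM libraries and SNHG26 without control replicate 3. Low counts limit hosts under 10 CPM.

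With the replicate number as a block, 14 hosts were called at 80 µM against the control, 0 at 40 µM, and 3 at 80 µM against 40 µM; over all genes 183 were called at 40 µM. The host calls lost were SNHG29 at 80 µM against the control, GAS5 at 40 µM against the control, and SNHG10, SNHG14 and SNHG19 at 80 µM against 40 µM. The labels do not say what a replicate number marks. Deviations of same-numbered libraries correlated between -0.14 and 0.07, and those of other numbers between -0.13 and 0.14. Same-numbered libraries were thus no more alike than others, which does not show that the numbers mark nothing.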

Other observations

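The table holds 322 rows with a count of exactly 1 in all 9 libraries and 2 rows with exactly 2. Of the 322, 80 are snoRNA rows, and 27 of those lie inside the host genes. Some single libraries leave that value: SNORD22 (ENSG00000278527) inside SNHG1 had 69 counts in the first 40 µM library and 1 in each of the other 8, and SNORD27 had 1 count in the first 40 µM library and 20 to 47 in the others.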
